A study of Homo sapiens with 4 samples.

Results

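The 10 genes described here are the immediate-early genes FOS, FOSB, FOSL1, JUN, JUNB, JUND, EGR1, ATF3, IER2 and IER3. They were taken as a named gene family, without a threshold on their values, and each symbol was mapped to 1 Ensembl row of the count table, so that 10 of its 63677 genes are covered. All 10 passed the filter on low counts that left 15116 genes for testing. They were measured by RNA-seq in HCT116, an established human colorectal cancer cell line, transfected either with an antisense oligonucleotide (ASO) against tandem GAA repeats (ASO anti-GAA) or with a control ASO. Each ASO had 2 libraries, numbered replicate 1 and replicate 2. The anti-GAA ASO is a gapmer with modified ends around a DNA core, a design that lets RNase H cut the paired RNA, and it was made to deplete RNAs with GAA repeats in a study of RNAs bound by ORC1, a subunit of the complex that marks replication origins. The labels give 48 h of transfection for all 4 libraries. Nothing else differed between the groups by their labels, there was no untransfected group, and both groups were the same line, without a genetic change named. Nothing in the labels says whether the replicate number marks a shared day or culture, and the study's methods call the libraries duplicate experiments. The p-values therefore measure the spread between these libraries.

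Immediate-early genes are switched on within minutes of a growth factor, stress or damage signal, without the need for new protein. Signals run through the MAP kinase cascades to factors already bound at the promoters, such as SRF with its ELK partners at CArG boxes and CREB or ATF proteins at cyclic AMP response elements (CRE). Their mRNAs are mostly short-lived, often through AU-rich elements such as ATTTA after the stop codon. FOS and JUN proteins pair through leucine zippers to form the transcription factor AP-1. In colorectal cancer cells with an active RAS pathway, as in HCT116, part of this programme is on without added stimulus. Since such mRNAs also respond to handling of the cells, the difference between the replicate numbers was measured beside the difference between the ASOs.

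The ASO and the stretches of member mRNAs with the longest GAA run or the best matches to its target are shown first, since the design rests on this match. The anti-GAA ASO and its full target, read as the reverse complement, are written 5′ to 3′.
anti-GAA ASO: ttcttcttcttcttcttcttc
anti-GAA ASO target: gaagaagaagaagaagaagaa
Below are the longest GAA run in FOS (capitals mark the run) and the best ungapped matches to the target in ATF3 and IER2 (capitals mark bases equal to the target), read on the plus strand of GRCh38, which is the RNA strand for these genes.
FOS: AGAAGAAGAAGAgaaaaggagaatccgaag
ATF3: aAAcAAGAAGAAGgAGAAGAc
IER2: GAAGAAaAgGAAGAAGAgGAg
The FOS stretch lies at chr14:75280568-75280597, in coding sequence of exon 3 of 4, and its run spans 12 nt. The ATF3 stretch lies at chr1:212618198-212618218, in coding sequence of exon 3 of 4, and matches the target at 17 of 21 bases. The IER2 stretch lies at chr19:13153616-13153636, in coding sequence of exon 2 of 2, and also matches at 17 of 21 bases. No member carried the full target in its canonical transcript. A match of at least 17 bases was found in 7.03% of the 14751 tested genes with a canonical transcript, and a run of GAA units of 12 nt or longer in 2.6%, so neither feature was particular to these genes. FOS matched the target at 14 bases at best, a number reached by 66.2% of tested genes with a canonical transcript. The other 7 members matched at 13 to 15 bases at best. ATF3 and IER2 thus matched at the same number of bases, but with mismatches at different places. Only spliced canonical transcripts were searched, not introns. Whether the ASO acts on either mRNA was not tested, and their levels are given below.

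With ASO anti-GAA the libraries held 10538284 (replicate 1) and 17894953 (replicate 2) counts, and with the control 15347298 and 15924742. The members together took 0.0973%, 0.0881%, 0.113% and 0.101% of them in that order. The labelled cell type was checked with 10 epithelial colorectal markers, of which KRT19 (1327, 1639, 1114 and 1366 CPM, counts scaled to a common library size), EPCAM (641, 628, 740 and 729 CPM) and KRT18 (224, 308, 389 and 388 CPM) were the most abundant. VIL1, a microvillus protein, was listed at 0 in 2 libraries and reached 0.112 CPM at most. Of 12 markers of leukocytes, fibroblasts, endothelium and muscle, CD3E, LYZ and PECAM1 were at 0 in all 4 libraries, 3 passed the filter, and COL1A1 was the most abundant at 10.1 to 14.6 CPM. The summed level of these 12 was 12.4, 17.6, 16.1 and 21.9 CPM. All 37 mitochondrial genes of the table were listed at 0 in every library, so that their share could not serve as a sign of RNA quality.

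Levels of different genes were compared per kb of the canonical transcript. IER2, a short nuclear protein induced by growth factors, led with a mean of 138 CPM per kb (131 to 151 over the 4 libraries). ATF3, a stress-induced bZIP repressor, followed with 106 (47.7 to 178) and FOSL1, the FOS relative also called FRA-1, with 96.4 (82.5 to 115). EGR1, a zinc finger factor that binds GC-rich sites, had a mean of 51.0 CPM per kb (46.8 to 56.2). Lower came JUNB at 26.6 (24.4 to 29.2), IER3 at 23.9 (16.6 to 31.0), JUN at 17.3 (14.1 to 20.3) and JUND at 13.1 (8.85 to 18.8) CPM per kb. FOS at 6.93 (5.53 to 7.68) and FOSB at 1.39 (0.963 to 1.81) closed the order. The ranges of IER2 and ATF3, ATF3 and FOSL1, JUNB and IER3, IER3 and JUN, and JUN and JUND overlapped. Of these neighbours, IER3 was above JUN in each of the 4 libraries, while the order of the other pairs differed between libraries. Between FOSL1 and EGR1, EGR1 and JUNB, JUND and FOS, and FOS and FOSB the ranges were separate.

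Within the FOS family, FOSL1 made up 91.8% and 90.7% of the summed CPM per kb of FOS, FOSB, FOSL1 and FOSL2 in the ASO anti-GAA libraries, and 88.1% and 86.5% in the control libraries. Within the JUN family the shares were more even. JUNB held 49.6%, 42.5%, 49.0% and 45.6%, JUN 33.9%, 24.7%, 34.1% and 28.8%, and JUND 16.5%, 32.8%, 16.9% and 25.6%, each in the order ASO anti-GAA 1 and 2, control 1 and 2. The JUND share was higher in both replicate 2 libraries than in both replicate 1 libraries.

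**Figure D1:**
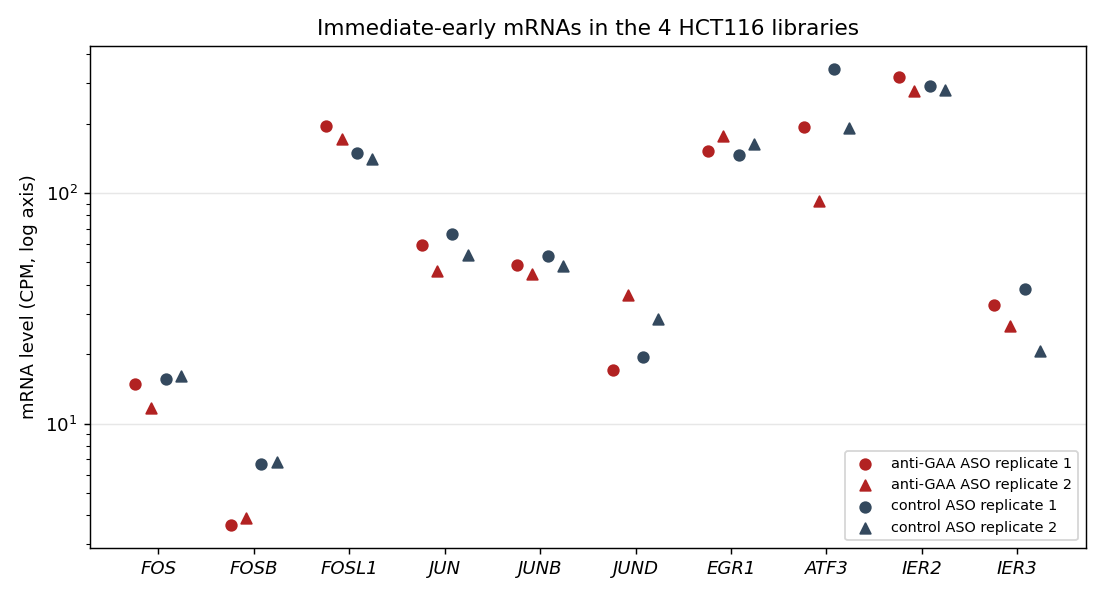
Level of each member in the 4 libraries (CPM, log axis), with colour for the ASO and shape for the replicate number. FOSB lies lower in both ASO anti-GAA libraries, FOSL1 higher, and ATF3 spans 92.5 to 346 CPM with the lower value in replicate 2 under both ASOs.

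The first comparison asked whether the members differed upon ASO anti-GAA transfection. By edgeR's quasi-likelihood test with Benjamini-Hochberg adjustment over all genes, 0 of the 10 members reached the threshold of 0.05 in either direction. Neither did any other gene, so that the background share was 0% lower and 0% higher. Before adjustment the same test put 523 genes (3.46%) below that threshold on the lower side and 154 (1.02%) on the higher side, among them 1 member, FOSB, on the lower side and 0 on the higher side. DESeq2 called 5 genes lower and 0 higher, none of them a member. The median log2 fold change of the members was −0.058, beside 0.013 over all tested genes. Libraries of the 2 ASOs did not overlap for 3 members. FOS and FOSB were below the controls in both ASO anti-GAA libraries, as were 16.9% of all genes, and FOSL1 was above them, as were 15.5%. With 2 libraries against 2, an exact permutation test of a single gene cannot go below p = 0.333 (two-sided), so the test relies on the spread shared across genes. In bulk RNA, a smaller share of cells expressing a gene and less mRNA per cell cannot be told apart.

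FOSB (ENSG00000125740, chr19:45467995-45475179, plus strand), an AP-1 subunit related to FOS, was measured at 3.64 and 3.88 CPM with ASO anti-GAA and at 6.65 and 6.84 CPM with the control. The 2 groups were well apart, and the libraries within each lay close together. Its log2 fold change was −0.84 ± 0.30 (SE, n = 2 per ASO; edgeR unadjusted p = 0.0283, adjusted p = 0.996). By replicate number the difference in log2 CPM was −0.85 and −0.80. FOSB was also the rarest member, with 36, 69, 102 and 116 reads (ASO anti-GAA 1 and 2, control 1 and 2), and the 95% counting interval of its log2 ratio ran from −1.46 to −0.31 in replicate 1 and from −1.27 to −0.38 in replicate 2. These exact intervals cover counting error only.

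ATF3 (ENSG00000162772, chr1:212565334-212620777, plus strand) had the largest fitted difference, with 193 and 92.5 CPM upon ASO anti-GAA and 346 and 191 CPM in the controls. The groups touched, since ASO anti-GAA replicate 1 stood at the level of control replicate 2. Within each replicate number ATF3 was lower with ASO anti-GAA, at 55.7% of the control in replicate 1 and 48.5% in replicate 2 (log2 ratios −0.84, 95% counting interval −0.92 to −0.77, and −1.04, −1.13 to −0.96). The fit over all 4 libraries gave a log2 fold change of −0.91 ± 0.41 (SE, n = 2 per ASO; edgeR adjusted p = 0.996). Without the filter on low counts ATF3 passed the edgeR threshold at −0.93 (adjusted p = 0.0303). With the replicate number added as a block it also passed, at −0.94 (edgeR adjusted p = 0.00669) and −0.94 (DESeq2 adjusted p = 0.000514). With that block and a length and GC correction ATF3 was at −1.03 (edgeR adjusted p = 0.000658). The edgeR fit with the block alone called 207 genes lower and 51 higher. The labels do not show that the number pairs the libraries. IER2, whose best match to the ASO target had the same number of bases, was measured at 319 and 277 CPM upon ASO anti-GAA. In the controls IER2 was at 293 and 280 CPM, a log2 fold change of 0.056 ± 0.19 (SE). FOS, with the longest GAA run, is described next.

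FOS (ENSG00000170345, chr14:75278826-75282230, plus strand), the founding AP-1 subunit, was at 14.9 and 11.6 CPM with ASO anti-GAA and at 15.7 and 16.2 CPM with the control. Both ASO anti-GAA values were below both controls, but in replicate 1 the gap was small. The log2 ratio was −0.076 in replicate 1 (95% counting interval −0.38 to 0.23) and −0.47 in replicate 2 (−0.74 to −0.21). The fit gave −0.27 ± 0.25 (SE; edgeR adjusted p = 0.996), about 1 standard error from 0.

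FOSL1 (ENSG00000175592, chr11:65892049-65900573, minus strand), which dominates the FOS family in many epithelial tumour lines, went the other way. It was measured at 195 and 172 CPM upon ASO anti-GAA and at 149 and 140 CPM in the controls. All ASO anti-GAA values were above all control values. Its log2 fold change was 0.34 ± 0.19 (SE; edgeR adjusted p = 0.996), and the difference by replicate number was 0.39 and 0.29. Leaving out any 1 library kept FOSL1 above 0 and FOSB, ATF3 and FOS below 0, with no call for any of them, but moved ATF3 from −1.54 (without ASO anti-GAA replicate 1) to −0.44 (without control replicate 1).

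The JUN genes lack introns, as do 10.6% of tested genes by the transcripts used here. JUN (ENSG00000177606, chr1:58776845-58784048, minus strand) was at 59.3 and 46.0 CPM with ASO anti-GAA and at 66.2 and 53.9 CPM with the control. JUNB (ENSG00000171223, chr19:12791486-12793315, plus strand), often an antagonist of JUN, was at 48.8 and 44.6 against 53.4 and 48.1 CPM. For both, the groups overlapped while each replicate number showed a small negative difference, −0.16 and −0.23 for JUN and −0.13 and −0.11 for JUNB. JUND (ENSG00000130522, chr19:18279694-18281622, minus strand), the least inducible JUN protein, was at 17.1 and 36.3 against 19.4 and 28.4 CPM. Its difference changed sign between the replicate numbers, −0.19 in replicate 1 and 0.35 in replicate 2, and the fitted value of 0.17 ± 0.38 (SE) was smaller than its error.

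EGR1 (ENSG00000120738, chr5:138465479-138469303, plus strand) was at 153 and 176 CPM upon ASO anti-GAA and at 147 and 164 CPM in the controls. The groups overlapped, and the log2 fold change was 0.084 ± 0.19 (SE). IER2 (ENSG00000160888, chr19:13150411-13154911, plus strand) differed by 0.12 in replicate 1 and −0.016 in replicate 2. IER3 (ENSG00000137331, chr6:30743199-30744548, minus strand), a stress-responsive regulator of survival, was at 32.8 and 26.4 against 38.4 and 20.6 CPM. Control libraries of IER3 lay outside the ASO anti-GAA libraries on both sides. Its log2 ratio was −0.23 in replicate 1 (95% counting interval −0.43 to −0.028) and 0.36 in replicate 2 (0.16 to 0.56). The pairs thus differed in sign beyond counting error, and the fitted value was 0.0047 ± 0.32 (SE). JUNB, IER2 and IER3 overlap exons of genes on the opposite strand, namely HOOK2, ENSG00000267598, and HCG20 with IER3-AS1. The strand setting of the counting is not given in the sources used here, so reads of these genes and their partners may not be separated.

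Over the 10 members, 5 were lower with ASO anti-GAA in both replicate numbers (FOS, FOSB, JUN, JUNB and ATF3), 2 were higher in both (FOSL1 and EGR1, the latter fitted at −0.010 when libraries were scaled to their total counts), and 3 had opposite signs (JUND, IER2 and IER3). Among all tested genes the shares were 30.0%, 31.8% and 38.2%. A count of 5 of 10 beside 30.0% is a description and was not tested.

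**Figure D2:**
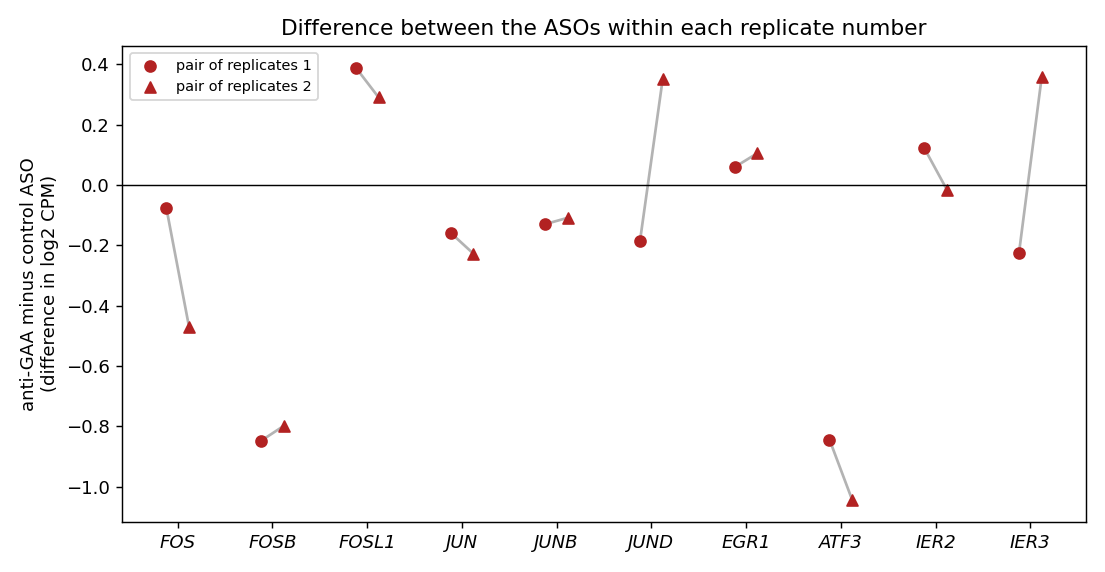
Difference in log2 CPM between ASO anti-GAA and control ASO within replicate 1 (circles) and replicate 2 (triangles), joined by a line for each member. FOSB and ATF3 lie near −0.8 to −1.0 in both, FOSL1 is positive in both, and JUND and IER3 cross 0.

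The second comparison asked how far the members differed between the replicate numbers, with the ASO as a covariate. In the whole table this difference was the larger of the pair, since 59.3% of the tested genes had a larger absolute log2 fold change between replicate numbers than between ASOs. The same held for 7 of the 10 members, all except FOS, FOSB and FOSL1, although the median absolute log2 fold change of the members was 0.163 between replicate numbers and 0.178 between the ASOs, beside 0.291 and 0.208 over all tested genes. edgeR called 1136 genes lower in replicate 2 than in replicate 1 (7.52%) and 1055 higher (6.98%), or 815 lower and 1550 higher when libraries were scaled to their total counts. Among the members 2 were lower, ATF3 and IER3, and 1 was higher, JUND. The members' median was −0.14, beside 0.016 over all tested genes. JUN, JUNB, ATF3, IER2 and IER3 were lower in both replicate 2 libraries than in both replicate 1 libraries, as were 24.9% of all genes, and JUND and EGR1 were higher in both, as were 25.9%.

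ATF3 was lower in replicate 2, with a log2 fold change of −0.96 ± 0.14 (SE; edgeR adjusted p = 0.000821). The difference was −1.06 between the ASO anti-GAA libraries and −0.86 between the control libraries in log2 CPM, close in size to the difference between the ASOs. IER3 was also lower (−0.61 ± 0.17 SE; edgeR adjusted p = 0.0312), with −0.31 between the ASO anti-GAA libraries and −0.90 between the controls. JUND was higher (0.81 ± 0.17 SE; edgeR adjusted p = 0.00873), with 1.08 under ASO anti-GAA and 0.55 under the control. JUN was at −0.33 ± 0.14 (SE; edgeR adjusted p = 0.132). The remaining members lay between −0.14 and 0.18. Each of the 3 calls was lost when single libraries were left out. ATF3 was not called without ASO anti-GAA replicate 2 (−0.50) or control replicate 1 (−0.44), JUND not without ASO anti-GAA replicate 1 (0.74), ASO anti-GAA replicate 2 (0.64) or control replicate 1 (0.92), and IER3 not without ASO anti-GAA replicate 1 (−0.71), control replicate 1 (−0.49) or control replicate 2 (−0.44), and not by DESeq2 (−0.62, adjusted p = 0.125). The fits without a library had the replicate number as the only term, a model that called 0 members even with all 4 libraries. A call lost in them therefore cannot be assigned to the library left out.

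**Figure D3:**
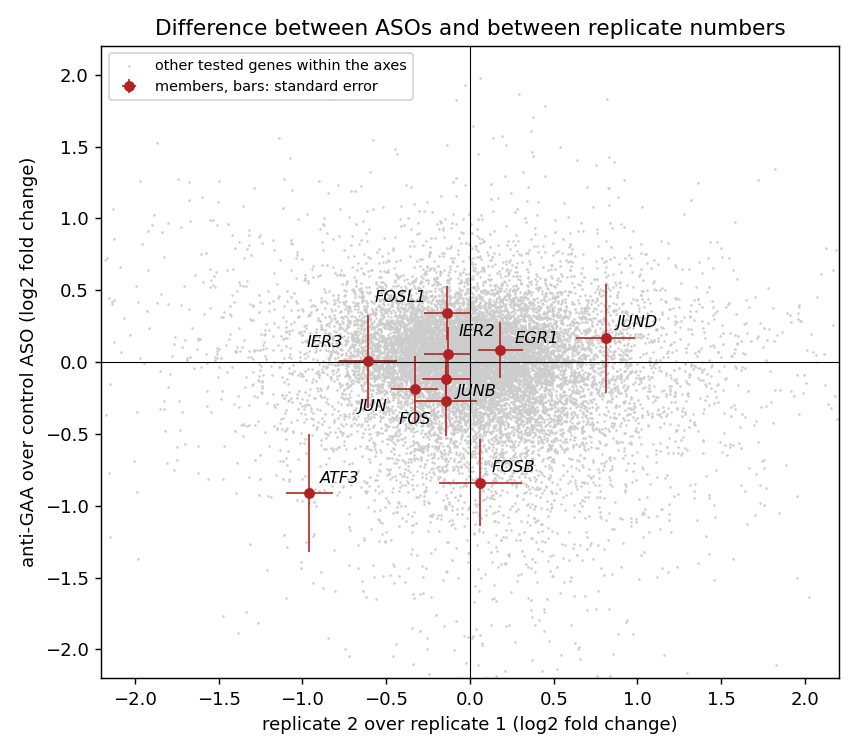
Log2 fold change between the ASOs (vertical) against that between the replicate numbers (horizontal) for the members (red, bars give the standard error) over the tested genes that fall within the axes (grey). ATF3 is displaced along both axes, FOSB along the vertical one, and JUND and IER3 along the horizontal one.

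Promoters are the place where the signals described above act. RefSeq windows of 250 bases before to 50 after the start (GRCh38.p14) were found for 8 members, without FOSL1 and IER3. Both strands were searched for the CArG box bound by SRF, the CRE (TGACGTCA), its core TGACG, which also counts inside each full CRE, the AP-1 site TGANTCA and the GC box GGGCGG. Within these windows only EGR1 held CArG boxes, 2 of them, the first starting 105 bases before the start site, against 1.29% of all 35116 windows. Bases farther upstream were not searched, so a member without a match here is not shown to lack the motif. Only JUND held a full CRE, 200 bases before the start, against 1.85% of windows. The CRE core was found in 7 of 8 members (all but ATF3) and 24.6% of windows, the GC box in 6 of 8 and 45.0%, and the AP-1 site in 0 of 8 and 7.71%. The windows of EGR1 and JUND, shown because they held the CArG boxes and the full CRE, follow, and capitals mark CArG boxes, CREs and CRE cores on either strand. A match is not a measured binding site, nothing in these data reads binding, and no relation of the motifs to the differences was tested.
EGR1 (chr5:138465229-138465528, plus strand): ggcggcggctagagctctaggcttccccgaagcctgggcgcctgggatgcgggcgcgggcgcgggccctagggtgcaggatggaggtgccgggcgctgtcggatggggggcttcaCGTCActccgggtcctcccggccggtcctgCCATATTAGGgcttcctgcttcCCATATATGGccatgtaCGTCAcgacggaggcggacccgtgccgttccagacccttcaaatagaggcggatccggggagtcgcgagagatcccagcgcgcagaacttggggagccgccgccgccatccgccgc
JUND (chr19:18281573-18281872, minus strand): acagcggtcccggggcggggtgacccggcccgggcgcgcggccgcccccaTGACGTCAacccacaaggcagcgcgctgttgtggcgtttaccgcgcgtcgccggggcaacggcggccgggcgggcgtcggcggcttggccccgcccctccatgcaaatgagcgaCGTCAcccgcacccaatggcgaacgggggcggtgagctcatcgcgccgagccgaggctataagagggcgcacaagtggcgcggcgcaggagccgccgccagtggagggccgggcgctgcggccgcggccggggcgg
ATF3, the member with the largest differences, had 2 windows, chr1:212565157-212565456 and chr1:212614768-212615067. Neither held a CArG box, a CRE, a CRE core or an AP-1 site. Whether either window is the promoter of the canonical ATF3 transcript was not checked, so ATF3 is not shown to lack these motifs.

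The pentamer ATTTA after the stop codon was present in 9 of 10 members, all but IER2, and in 72.5% of the 12166 tested genes with an annotated stop codon. IER3 was densest with 6 in 737 nt (8.14 per kb), a density reached by 1.95% of genes, followed by FOS with 5 in 806 nt (6.20 per kb; 4.78%). The median density was 1.86 per kb in the members and 1.68 per kb in all these genes. ATF3 had 3 in 1220 nt (2.46 per kb), JUND 1 in 747 nt (1.34 per kb) and FOSB 3 in 2167 nt (1.38 per kb), none of them far from the median. Between replicate numbers FOS was at −0.14 ± 0.19 (SE), while IER3 and ATF3 had the differences given above.

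The factors that destroy or protect such mRNAs were measured in 20 genes, 19 of them tested. DCP1A, a decapping cofactor, was listed at 0 in all 4 libraries, which alone does not show that its mRNA was absent. In the ASO comparison 0 were called by edgeR and the median log2 fold change was 0.082. Between replicate numbers 1 was lower in replicate 2, EXOSC10, the nuclear exosome nuclease (73.8, 45.8, 64.6 and 44.6 CPM; −0.61 ± 0.14), and the median was −0.12. The most abundant were HNRNPD (887, 820, 843 and 638 CPM), TIAL1 (232, 221, 238 and 223 CPM) and ELAVL1 (213, 275, 230 and 189 CPM), the stabilising protein HuR. All 4 values here and below are in the order ASO anti-GAA replicates 1 and 2, control replicates 1 and 2, and lower, higher and the values in parentheses refer to log2 fold changes of replicate 2 over replicate 1 ± SE that passed the edgeR test.

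The upstream kinases and promoter-bound factors (24 genes, all tested) gave 0 calls between the ASOs, with a median of 0.038. Between replicate numbers 3 were lower and 2 higher, with a median of 0.020. Among the lower ones were MAP2K4 (−0.60 ± 0.16) and MAP2K7 (−0.64 ± 0.16), which phosphorylate JNK. MAP2K1 (0.49 ± 0.14), a MAP kinase kinase, and ELK3 (0.47 ± 0.14), an SRF partner, were higher. MAP2K1 (131, 200, 152 and 197 CPM) was the most abundant, and ELK3 was at 85.5, 108, 80.2 and 121 CPM.

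Among 15 other immediate-early transcription factors, 13 were tested and 0 were called between the ASOs, with a median of −0.011. Between replicate numbers 2 were lower, KLF4 (−0.50 ± 0.14) and CSRNP1 (−0.50 ± 0.15), and 2 higher, BHLHE40 (1.34 ± 0.18) and KLF2 (0.76 ± 0.14), with a median of 0.23. BHLHE40, a repressor that also acts in the circadian clock, was at 11.6, 34.3, 10.8 and 23.5 CPM, higher in replicate 2 under both ASOs. MYC (313, 315, 273 and 251 CPM), KLF6 (170, 125, 121 and 114 CPM) and KLF10 (104, 144, 132 and 139 CPM) were the most abundant, and none of them was called in either comparison.

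The immediate-early genes that encode no DNA-binding factor (24 genes, all tested) gave 0 calls between the ASOs, with a median of −0.0012. Between replicate numbers 4 were lower and 2 higher, with a median of −0.0036. PPP1R15A, which restores translation after stress, was at 33.7 and 16.2 CPM under ASO anti-GAA and at 40.1 and 21.3 CPM under the control (−0.98 ± 0.16). The MAP kinase phosphatases DUSP2 (−1.15 ± 0.14) and DUSP8 (−0.72 ± 0.21) and the matricellular protein gene CCN1 (−0.95 ± 0.16) were also lower. DUSP6, another MAP kinase phosphatase (0.69 ± 0.14), and IER5L (0.70 ± 0.22) were higher, so the phosphatases differed in direction. GADD45A (303, 351, 406 and 539 CPM), EREG (340, 388, 337 and 312 CPM) and DUSP5 (293, 294, 275 and 257 CPM) were the most abundant.

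Of 12 dimer partners of FOS and JUN proteins, 10 were tested, with 0 calls and a median of 0.070 between the ASOs. MAFG, a small MAF protein, was lower in replicate 2 (193, 92.1, 140 and 78.3 CPM; −0.95 ± 0.14), the only call of this list, whose median between replicate numbers was −0.14. ATF4, the factor that drives ATF3 in the integrated stress response, was the most abundant, with 450 and 345 CPM upon ASO anti-GAA and 291 and 251 CPM in the controls. It was higher in both ASO anti-GAA libraries, opposite to ATF3, with a log2 fold change of 0.55 ± 0.22 (SE; edgeR adjusted p = 0.996). MAFF (22.7, 18.7, 23.1 and 21.4 CPM) was the third, after MAFG.

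Of 18 textbook targets of AP-1 or EGR1, 15 were tested, with 0 calls and a median of −0.10 between the ASOs. Between replicate numbers 3 were lower and 1 higher, with a median of 0.20. CXCL8, the chemokine IL-8, differed most (18.1, 3.03, 26.7 and 2.89 CPM; −2.89 ± 0.23), followed by PLAU, the urokinase gene (121, 46.0, 114 and 48.8 CPM; −1.31 ± 0.14), and HMOX1, heme oxygenase (178, 71.5, 93.8 and 41.1 CPM; −1.25 ± 0.14). MMP7, a matrix protease, was higher at a low level (0.606, 1.29, 0.652 and 2.24 CPM; 1.50 ± 0.46). TIMP1 (477, 419, 392 and 385 CPM), CD44 (251, 306, 312 and 463 CPM) and CCND1 (186, 214, 201 and 229 CPM) were the most abundant and were not called.

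Of the heat shock genes, all 10 were below 0 between replicate numbers, beside 48.6% of all tested genes, and their median was −0.45. Of these, 4 were called lower, beside 7.52% of all genes, HSPA1B (−0.86 ± 0.19), HSPE1 (−0.73 ± 0.14), DNAJB1 (−0.62 ± 0.14) and HSPH1 (−0.48 ± 0.14). HSPA1B and HSPA1A are near-identical copies, and their split of reads is uncertain. Between the ASOs 0 were called and the median was 0.13. The summed level of the list was 11491, 7515, 11219 and 9128 CPM, of which HSP90AA1 was the largest part (5335, 2249, 5256 and 4962 CPM), low in ASO anti-GAA replicate 2. HSPA8 (1816, 1921, 2256 and 1292 CPM) and HSPD1 (1789, 1456, 1475 and 1365 CPM) came next. Of 9 tested epithelial markers, 0 were called between the ASOs (median −0.21) and 1, the splicing factor ESRP1, was higher in replicate 2 (0.58 ± 0.14; median of the list 0.10). Of 3 tested markers of other cell types, 0 were called between the ASOs (median −0.63) and 1, the muscle filament gene DES, was higher in replicate 2 (1.41, 3.32, 2.22 and 5.31 CPM; 1.24 ± 0.31; median of the list 0.33). The part of any of these in the members' differences was not tested.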

How the data were processed

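The authors used Trimmomatic and STAR on hg19, left out reads on GL contigs, and assigned the rest to Ensembl genes with featureCounts, naming DESeq2 for their own contrasts. The deposited values are unnormalized whole-number counts for 63677 genes in 4 libraries, and 0 columns of sample values were left unused. The Ensembl release, strand setting and treatment of multi-mapping reads are not given in the sources used here. The labels and the methods differ on the library kit and on the hours of transfection (the labels' 48 h is printed).

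The tests were run with edgeR 4.0.16 in R 4.3.3 (filterByExpr, TMM, quasi-likelihood F-test, Benjamini-Hochberg over 15116 genes, threshold 0.05), with DESeq2 1.42.0 as an alternative, and tested on simulated data. The ASO comparison had the ASO as the only term, and the replicate comparison added it as a covariate. CPM are TMM-scaled, and differences in log2 CPM use a prior count of 2. Ratios of reads have exact 95% binomial intervals. Symbols, positions and transcripts came from GENCODE 44 on GRCh38, matched by identifier for 52181 genes, and canonical transcripts were used in place of the longest for exon counts. Promoters are RefSeq GRCh38.p14. Named were all members and, from each other list, genes called in either comparison and the 3 most abundant, apart from a few that are not reported here. Other genes, and the comparison of ATF4 with ATF3, were chosen after values were seen. The members and lists were chosen with earlier results of these data known. Alternatives were DESeq2, other scalings and filters, a length and GC correction, the replicate block and leaving out each library.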

Additional observations from a re-analysis of the deposited data

How the results depend on the processing

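Between the ASOs, edgeR called 0 genes lower and 0 higher. The counts were 5 and 0 with DESeq2, 111 and 5 with no filter on low counts, and 0 on scaling to total counts, with DESeq2's size factors in edgeR, with only genes of mean 1 CPM or more, the length and GC correction or any 1 library left out. With the replicate block they were 207 lower and 51 higher, with DESeq2 and the replicate block 45 and 13, and with the replicate block and the length and GC correction 327 and 108. In each of these 3 blocked fits and with no filter, 1 member was called, ATF3, at −0.94 (edgeR adjusted p = 0.00669), −0.94 (DESeq2 adjusted p = 0.000514), −1.03 (edgeR adjusted p = 0.000658) and −0.93. The adjusted p of ATF3 in the other fits ran from 0.313 to 1.00. Among the other lists the edgeR fit with the replicate block called EGR3 (−1.09, adjusted p = 0.0266) and HBEGF (−0.71, 0.0395) lower and KLF2 (0.67, 0.0261) and HMOX1 (0.86, 0.00833) higher. The block rests on the number alone. Across genes, deviations of same-numbered libraries from their group means correlated with r = 0.564, but with 2 pairs and no label on a shared batch the number is not shown to pair the libraries.

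The members' median of −0.058 between the ASOs went to −0.15 with scaling to total counts, which moved the median of all genes to −0.081, and to between −0.21 and −0.039 with single libraries left out. Values near 0 changed sign: with scaling to total counts EGR1 (−0.010), IER2 (−0.041) and IER3 (−0.080), and IER3 also without the filter (−0.0060), with only genes of mean 1 CPM or more (−0.0014) and with the length and GC correction (−0.031). Without single libraries JUND ran from −0.49 to 0.60, EGR1 from −0.023 to 0.18, IER2 from −0.048 to 0.15 and IER3 from −0.37 to 0.51. JUN (−0.38 to −0.018), JUNB (−0.19 to −0.056) and FOS (−0.45 to −0.099) moved as well but stayed below 0. The cause was not tested.

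Between the replicate numbers, 1136 genes lower and 1055 higher became 494 and 316 with DESeq2, 201 and 167 with the replicate number as the only term (0 members called), and 148 to 549 lower and 80 to 458 higher with single libraries left out (0 to 2 members called). IER3 was not called with scaling to total counts either (−0.52, edgeR adjusted p = 0.0529). The members' median of −0.14 became −0.052 with scaling to total counts, which moved the median of all genes to 0.10, and −0.30 to −0.11 with single libraries left out. Then FOS ran from −0.40 to 0.082, FOSB from −0.44 to 0.56 and FOSL1 from −0.33 to 0.066. Over all member values, 113 of those between the ASOs and 93 of those between replicate numbers kept their direction and their side of the threshold. A lone library in a group was taken to vary like the others. FOSB and the smallest lists rest on low counts, where counting error alone is wide.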

Other observations

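Outside the rule for named genes, and chosen after values were seen, 5 genes of the lists stood lower upon ASO anti-GAA below 0.05 in edgeR before adjustment, with no adjusted call in the fit on the ASO alone. They were 1 of 13 other immediate-early transcription factors, 2 of 24 feedback and growth genes, 1 of 24 upstream regulators and 1 of 9 epithelial markers. Of all tested genes, 3.46% stood lower at that threshold, and the counts of the lists were not tested. EGR3, a relative of EGR1 induced by the same signals, was at 4.85 and 5.11 CPM with ASO anti-GAA and at 9.32 and 11.8 CPM with the control (log2 fold change −1.08 ± 0.29 SE, edgeR adjusted p = 0.922). HBEGF, an EGF receptor ligand, was at 36.5 and 26.5 against 50.9 and 50.7 CPM (−0.69 ± 0.23 SE, edgeR adjusted p = 0.996). GADD45A (−0.53), RPS6KA5 (−0.75), the kinase MSK1, and KRT18 (−0.54) were the others. On the higher side stood ATF4, MAPK8 (0.68), which encodes JNK1, and NAB2 (0.51), a corepressor of EGR1, at 35.0 and 30.9 against 21.9 and 24.2 CPM. Of all tested genes, 1.02% stood on that side.

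Over the 4 libraries, the genes whose centred log2 CPM lay nearest to the mean profile of the members, out of 10479 whose mean reached 5 CPM, were PGGT1B (Euclidean distance 0.020), SLC25A10 (0.027), MSANTD3 (0.038), PCID2 (0.038) and DDX41 (0.041). JUNB was the member nearest to this mean at 0.054, and ATF3 and JUND were the farthest at 1.13 and 1.02. The mean profile was −0.025, −0.15, 0.16 and 0.0082 in ASO anti-GAA replicates 1 and 2 and control replicates 1 and 2. It is the average of members that differ among themselves, and 5137 of the 10479 genes lay closer to it than the median member did.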
